A study of Mus musculus with 20 samples.

Results

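The neprilysin (M13) family of zinc peptidases was followed through the cerebral cortex of mice lacking the APP family in excitatory neurons, together with Ide, the insulin-degrading enzyme. The members were taken by symbol: Mme (neprilysin, also written Nep), Mmel1, Ece1, Ece2, Ecel1, Phex and Ide, 7 of the 24421 genes with a row in each library. The study asked how the loss of APP, APLP1 and APLP2 changes gene expression in the adult brain, and Nep is among the genes whose transcription has been tied to the intracellular fragment of APP. RNA-seq libraries were made from the neocortex and the hippocampus of 3-month-old mice of both sexes on a C57BL/6J and 129 hybrid background, and each of the 4 combinations of region and genotype had 5 libraries, 20 altogether.

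All mice carried floxed alleles of App, Aplp1 and Aplp2. The cTKO mice also carried the Camk2a-Cre transgene, which deletes the floxed genes after birth in forebrain excitatory neurons, and their littermate controls, which the labels call wild type, had the floxed alleles without Cre. Each library came from whole dissected tissue, so deleted neurons were measured together with interneurons, glia and vessels that kept the genes, and fewer cells of a type cannot be told apart from less RNA per cell. Each library held between 12169474 and 25331954 counts. App fell from 1617 ± 123 to 376 ± 31.9 CPM (counts scaled to library size; SD, n = 5) in the neocortex and from 1520 ± 95.6 to 443 ± 11.5 CPM in the hippocampus, with no overlap between the genotypes, as was also found for Aplp1 and Aplp2. The summed level of 8 transcripts of embryonic tissue (embryonic globins, H19, Top2a and Hox genes) was 668 CPM in cTKO neocortex library 5 and 430 CPM in cTKO hippocampus library 4, against 2.25 to 5.78 CPM in the other 18 libraries, and results that rest on these libraries are given with and without them.

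M13 peptidases are membrane proteins whose catalytic domain faces the outside of the cell or the lumen of secretory vesicles, where they cut short peptides next to bulky side chains. Neprilysin degrades enkephalins, tachykinins, natriuretic peptides and amyloid beta, and the endothelin-converting enzymes Ece1 and Ece2 cut big endothelins and also amyloid beta. Ecel1, known as damage-induced neuronal endopeptidase, is made by neurons and is raised after nerve injury, and Phex is known from bone, where its loss causes X-linked hypophosphatemia. Ide belongs to another family, M16, and degrades insulin, amylin and amyloid beta within the cell and outside it.

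The members of M13 share a short motif of a histidine, a glutamate, any pair of residues and a histidine that holds the zinc ion, and in Ide the order of the motif is inverted. The coding sequences around it are shown because they are the feature by which these genes are grouped as zinc peptidases. Each stretch was read 5′ to 3′ on the coding strand from the GENCODE annotation of GRCm38, with the codons of the motif in capitals, and each coding sequence held 1 such motif. For Ide the transcript used is annotated without its start.
Mme: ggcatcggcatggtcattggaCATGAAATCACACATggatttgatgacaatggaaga
Mmel1: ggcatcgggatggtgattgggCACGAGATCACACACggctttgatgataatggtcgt
Ece1: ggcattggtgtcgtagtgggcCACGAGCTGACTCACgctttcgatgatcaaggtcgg
Ece2: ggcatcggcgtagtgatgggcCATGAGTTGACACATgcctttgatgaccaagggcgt
Ecel1: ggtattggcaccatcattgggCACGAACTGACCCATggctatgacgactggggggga
Phex: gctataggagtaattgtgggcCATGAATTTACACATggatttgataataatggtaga
Ide: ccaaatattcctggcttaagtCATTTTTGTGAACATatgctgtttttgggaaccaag

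The capitals lie in exons at chr3:63362021-63362035 (Mme, + strand, exon 18), chr4:154893321-154893335 (Mmel1, + strand, exon 18), chr4:137957172-137957186 (Ece1, + strand, exon 17), chr16:20643890-20643904 (Ece2, + strand, exon 16), chr1:87149800-87149814 (Ecel1, - strand, exon 12), chrX:157186225-157186239 (Phex, - strand, exon 17) and chr19:37329136-37329150 (Ide, - strand, exon 2). Over the 57 bases shown, Mmel1 shared 80.7% of bases with Mme at the same position, Ece2 73.7%, Phex 71.9%, Ecel1 68.4% and Ece1 59.6%. Ece2 is the member whose counts are uncertain, since 57.5% of its exon bases are also exons of Gm49333, a gene on the same strand that has no row in the files.

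Levels were compared between genes as CPM per kilobase of exon, with neighbours in the order said to be apart only where the ranges of their 5 libraries did not overlap. In control neocortex, Ece1 (16.7 ± 1.23 CPM per kb, SD, n = 5) and Ide (14.3 ± 3.83) led with overlapping ranges. Ece2 (3.71 ± 0.197) and Ecel1 (2.96 ± 0.846) followed, also overlapping, and both lay apart from Ide above and from Mme (1.05 ± 0.131) below. Mmel1 (0.272 ± 0.0852) and Phex (0.146 ± 0.0576) were lowest and overlapped each other. In control hippocampus the order was Ide (12.9 ± 3.43 CPM per kb), Ece1 (9.32 ± 0.731), Ece2 (3.96 ± 0.445), Ecel1 (0.828 ± 0.248), Mme (0.679 ± 0.156), Phex (0.0599 ± 0.0296) and Mmel1 (0.0543 ± 0.0187), and the pairs Ide and Ece1, Ecel1 and Mme, and Phex and Mmel1 overlapped.

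In cTKO mice Ecel1 stood elsewhere relative to Ece2 and Mme. In cTKO neocortex its mean of 8.496 ± 2.90 CPM per kb ranked above Ece2 (3.97 ± 0.7101), with no overlap between these genes, while its range overlapped that of Ide (12.6 ± 1.90). In cTKO hippocampus it stood at 3.72 ± 1.99 CPM per kb, overlapping Ece2 (4.10 ± 0.560) and apart from Mme (0.521 ± 0.196).

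Ecel1 was the member that rose in cTKO mice, in both regions. In the neocortex, Ecel1 stood at 5.78, 13.6, 11.4, 11.5 and 9.38 CPM in control libraries 1 to 5 and at 41.6, 27.1, 23.7, 38.7 and 17.6 CPM in cTKO libraries 1 to 5. Every cTKO library lay above every control library, with cTKO libraries 1 and 4 highest. By mean the level went from 10.3 ± 2.96 to 29.7 ± 10.1 CPM (SD, n = 5). The fitted change was 2.92-fold with a 95% interval of 2.02 to 4.21, or 1.54 on the log2 scale with a standard error of 0.25 (edgeR's quasi-likelihood test, FDR 0.0294).

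In the hippocampus, Ecel1 stood at 3.67, 3.73, 2.86, 2.61 and 1.62 CPM in control libraries 1 to 5, on 31 to 87 counts, and at 24.4, 14.9, 8.54, 7.51 and 9.70 CPM in cTKO libraries 1 to 5, on 157 to 595 counts. The genotypes again did not overlap, and cTKO library 1 was the highest in both regions. By mean it went from 2.90 ± 0.867 to 13.01 ± 6.97 CPM (SD, n = 5). The fitted change was 4.47-fold with a 95% interval of 2.71 to 7.36, or 2.16 on the log2 scale with a standard error of 0.33 (edgeR's quasi-likelihood test, FDR 0.0143). The larger fold in the hippocampus was not shown to differ from that in the neocortex: the difference between the log2 fold changes was 0.62 (standard error 0.44, unadjusted p = 0.176, FDR 0.9999 in edgeR's interaction test), with a 95% interval of -0.30 to 1.54. Of the 6 members tested for this difference 0 were called, by edgeR's quasi-likelihood or likelihood ratio test or by DESeq2, and 0 had an unadjusted p under 0.05, where 0.0564% of 14192 genes were called and 3.75% had such a p. Without the libraries holding embryonic transcripts 0 members were called, and the difference for Phex was 1.19 (unadjusted p = 0.0455, FDR 0.9998 in edgeR's quasi-likelihood test). Mmel1 was too low in counts for these fits, and its value is given below with the regions.

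Of the 6 members tested in the neocortex, Ecel1 was the 1 called, where 0.188% of the 13843 genes tested were called, 0.0867% as higher. Of the 5 members tested in the hippocampus it was again the 1 called, where 0.489% of 13702 genes were called, 0.314% as higher. Groups that do not overlap, with cTKO higher, were found for 0.787% of genes tested in the neocortex and for 1.91% in the hippocampus.

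The call for Ecel1 in the neocortex was near the threshold in edgeR's quasi-likelihood test and was kept in 2 of 10 such fits that left out a library. With all libraries the FDR was 2.09e-06 by edgeR's exact test, 1.76e-06 by its likelihood ratio test and 0.000173 by DESeq2. The paper reported Ecel1 as raised in both regions in its own RNA-seq test. Its qRT-PCR in a different set of mice also found Ecel1 raised in both. The fits with a library left out used the quasi-likelihood test. In the fits that lost it, 7 to 15 genes were called over the whole table, against 26 with all libraries. The call was lost when control neocortex library 1, 2, 3, 4 or 5 or cTKO neocortex library 1, 2 or 4 was left out (FDR 0.0553 to 0.0950, log2 fold change 1.37 to 1.67), and in the hippocampus without control library 4 (FDR 0.0675). Without the libraries holding embryonic transcripts, which were the lowest cTKO libraries for Ecel1 in their region, the log2 fold change was 1.68 (FDR 0.00265) in the neocortex and 2.30 (FDR 0.00894) in the hippocampus.

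Markers of other cells were read beside Ecel1. Over all genes, 1437 of 13843 in the neocortex and 1646 of 13702 in the hippocampus had an unadjusted p under 0.05 in edgeR's quasi-likelihood test. DESeq2 called 221 and 331 of these genes, and edgeR's exact test 167 and 258. Of 7 interneuron markers, 0 were called in either region by edgeR's quasi-likelihood test, with 2 at an unadjusted p under 0.05 in each, and 1, Gad2, was called in each by DESeq2 and by edgeR's exact test. Of 5 excitatory neuron markers 0 were called by the quasi-likelihood test, with 1 at such a p in the neocortex and 3 in the hippocampus, and DESeq2 called 1, Camk2a, in the neocortex. The summed interneuron markers ranged from 917 to 1052 CPM in control and from 935 to 1221 CPM in cTKO neocortex. It ranged in the hippocampus from 740 to 929 CPM in control and from 824 to 1048 CPM in cTKO libraries. The summed markers of the striatum, which borders the dissected neocortex, ranged from 340 to 490 CPM in control and from 374 to 680 CPM in cTKO neocortex. Its hippocampal range was 84.7 to 111 CPM in control and 89.3 to 146 CPM in cTKO libraries, where 1 of 6, Drd1, was called higher. Of 5 neocortical markers 1, Lamp5, was called lower in the hippocampus, with sums of 87.5 to 111 CPM in control and 69.2 to 92.9 CPM in cTKO libraries. The summed choroid plexus and ependyma markers ranged from 53.1 to 2583 CPM in control and from 90.8 to 561 CPM in cTKO hippocampus, with 0 of 5 called by the quasi-likelihood test or DESeq2, 2 at an unadjusted p under 0.05 and a median log2 fold change of -1.56. The summed astrocyte markers ranged from 1891 to 2393 CPM in control and from 1873 to 4806 CPM in cTKO hippocampus. In the neocortex they ranged from 1125 to 1323 CPM in control and from 1089 to 1493 CPM in cTKO libraries. Of these markers 0 were called by the quasi-likelihood test, and likewise for those of oligodendrocytes and their precursors, microglia, endothelium and hippocampus. The part of these cells in the level of Ecel1 was not tested.

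**Figure D1:**
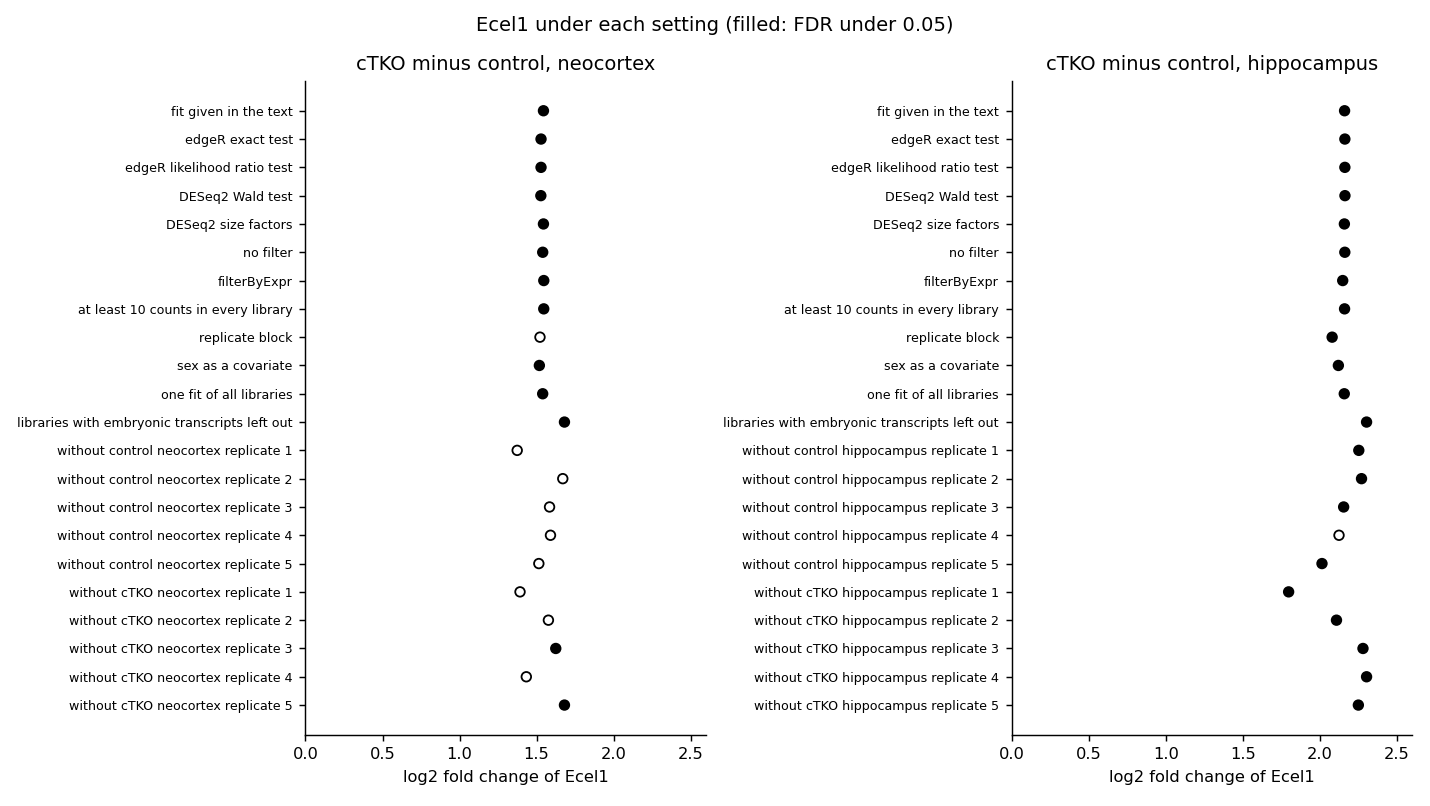
Log2 fold change of Ecel1 (x axis), cTKO minus control, in the neocortex and the hippocampus, under each processing setting and with each library left out (y axis). Points are filled where the FDR was under 0.05, and the neocortical values span 1.37 to 1.68 where the hippocampal ones span 1.80 to 2.30.

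Mme was not called in either region. In the neocortex, Mme stood at 13.7, 12.6, 9.71, 12.8 and 11.8 CPM in control libraries 1 to 5 and at 8.89, 15.8, 9.88, 10.2 and 13.3 CPM in cTKO libraries 1 to 5, so that the ranges overlapped and the highest and the lowest library were both cTKO. The means were 12.1 ± 1.51 and 11.6 ± 2.85 CPM (SD, n = 5). The log2 fold change was -0.064 (FDR 0.927 in edgeR's quasi-likelihood test), and the 95% interval of the ratio of cTKO to control ran from 0.760 to 1.20.

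In the hippocampus, Mme stood at 7.69, 6.70, 6.04, 8.03 and 10.7 CPM in control libraries 1 to 5 and at 4.63, 5.12, 4.87, 5.41 and 10.04 CPM in cTKO libraries 1 to 5. cTKO libraries 1 to 4 lay below all control libraries, and cTKO library 5 lay above all control libraries but library 5. The means were 7.83 ± 1.80 and 6.01 ± 2.27 CPM (SD, n = 5). The log2 fold change was -0.38 with a standard error of 0.22 (edgeR's quasi-likelihood test, FDR 0.551), and the 95% interval of the ratio ran from 0.549 to 1.08. Without cTKO hippocampus library 5 the log2 fold change was -0.64 (FDR 0.0965 in the same test), past 1.5 times the value with all libraries and still not a call. The paper reported Nep as lower in both regions by qRT-PCR. In its own RNA-seq test Nep was not significant with all mice. It fell significantly in the hippocampus once the cTKO mouse with the most different profile was removed. The paper's log2 fold change was then close to the -0.64 found here. The paper does not say which mouse this was, and its test called more genes in the hippocampus than the 67 called here. The genotype effects on Mme in the 2 regions differed by -0.31 on the log2 scale (95% interval -0.90 to 0.28, unadjusted p = 0.291 in edgeR's interaction test). Without cTKO hippocampus library 5 this difference was -0.58 (unadjusted p = 0.0229, FDR 0.869 in the same test), which is not a call.

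Mmel1, the closest relative of Mme in sequence here, was at the limit of detection. In the neocortex, Mmel1 had 24, 11, 10, 22 and 12 counts in control libraries 1 to 5 (0.984, 0.657, 0.823, 1.43 and 0.834 CPM) and 13, 3, 7, 11 and 7 counts in cTKO libraries 1 to 5 (0.587, 0.147, 0.440, 0.583 and 0.519 CPM). All cTKO libraries were below all control libraries in CPM, a pattern found with cTKO lower for 1.2% of the 19279 genes with a count. Since the gene did not reach 1 CPM in 5 libraries, it was tested on its own: the mean log2 CPM differed by -0.96 (exact permutation test, two-sided, p = 0.00794, below which the test cannot go with groups of 5; 6 such tests of single members were run). The same gene in the fit of all genes with a count, adjusted over all of them, changed by -1.06 on the log2 scale with a standard error of 0.39 (edgeR's quasi-likelihood test, FDR 0.386, where 0.218% of genes were called), so the difference was larger than the spread of these libraries for a single gene and did not hold over the whole table.

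In the hippocampus Mmel1 had 2 to 5 counts in control and 4 to 8 counts in cTKO libraries, near the floor of 3 counts, and a difference was not detectable at this depth (exact permutation test, two-sided, p = 0.175).

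Ece1, which activates endothelin and is the member with the steadiest level, did not differ by genotype beyond its spread. Neocortical levels ran from 81.4 to 98.8 CPM in control and from 79.2 to 95.3 CPM in cTKO libraries, and hippocampal levels from 43.7 to 53.0 and from 45.2 to 54.3 CPM. For Ece1 the log2 fold changes were -0.054 (neocortex) and -0.0051 (hippocampus), with FDR 0.835 and 0.991 in edgeR's quasi-likelihood test, and the 95% intervals of the ratio were 0.874 to 1.06 and 0.892 to 1.11.

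Ece2, the neuronal relative of Ece1, was at 17.7 to 20.1 CPM in control and 14.5 to 24.2 CPM in cTKO neocortex. Hippocampal levels were 17.9 to 22.6 CPM in control and 15.9 to 22.7 CPM in cTKO libraries. Its lowest cTKO library was the one with embryonic transcripts in each region. For Ece2 the log2 fold changes were 0.11 (neocortex, 95% interval of the ratio 0.914 to 1.27) and 0.050 (hippocampus, 0.877 to 1.22), with FDR 0.792 and 0.918 in edgeR's quasi-likelihood test. Without those libraries the values were 0.20 (FDR 0.343) and 0.13 (FDR 0.608).

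Phex was detected on 3 to 31 counts per library. In the neocortex it ranged from 0.411 to 1.23 CPM in control and from 0.440 to 2.08 CPM in cTKO libraries, with a log2 fold change of 0.25 (95% interval of the ratio 0.672 to 2.10, FDR 0.880 in edgeR's quasi-likelihood test). The highest value was that of cTKO neocortex library 5, which holds embryonic transcripts, and the log2 fold change without it was -0.058. In the hippocampus, Phex stood at 0.553, 0.300, 0.590, 0.285 and 0.157 CPM in control libraries 1 to 5 and at 0.615, 0.482, 1.28, 1.10 and 0.974 CPM in cTKO libraries 1 to 5. One cTKO library, library 2, lay within the control range and the other cTKO libraries lay above it. The mean log2 CPM differed by 1.07 (exact permutation test, two-sided, p = 0.0317), and in the fit of all genes with a count it changed by 1.22 on the log2 scale with a standard error of 0.40 (edgeR's quasi-likelihood test, FDR 0.280, where 0.374% of genes were called), which is not a call. Leaving out control hippocampus library 2, 4 or 5 or cTKO hippocampus library 3, 4 or 5 took the permutation p above the threshold (0.0556 to 0.0635).

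**Figure D2:**
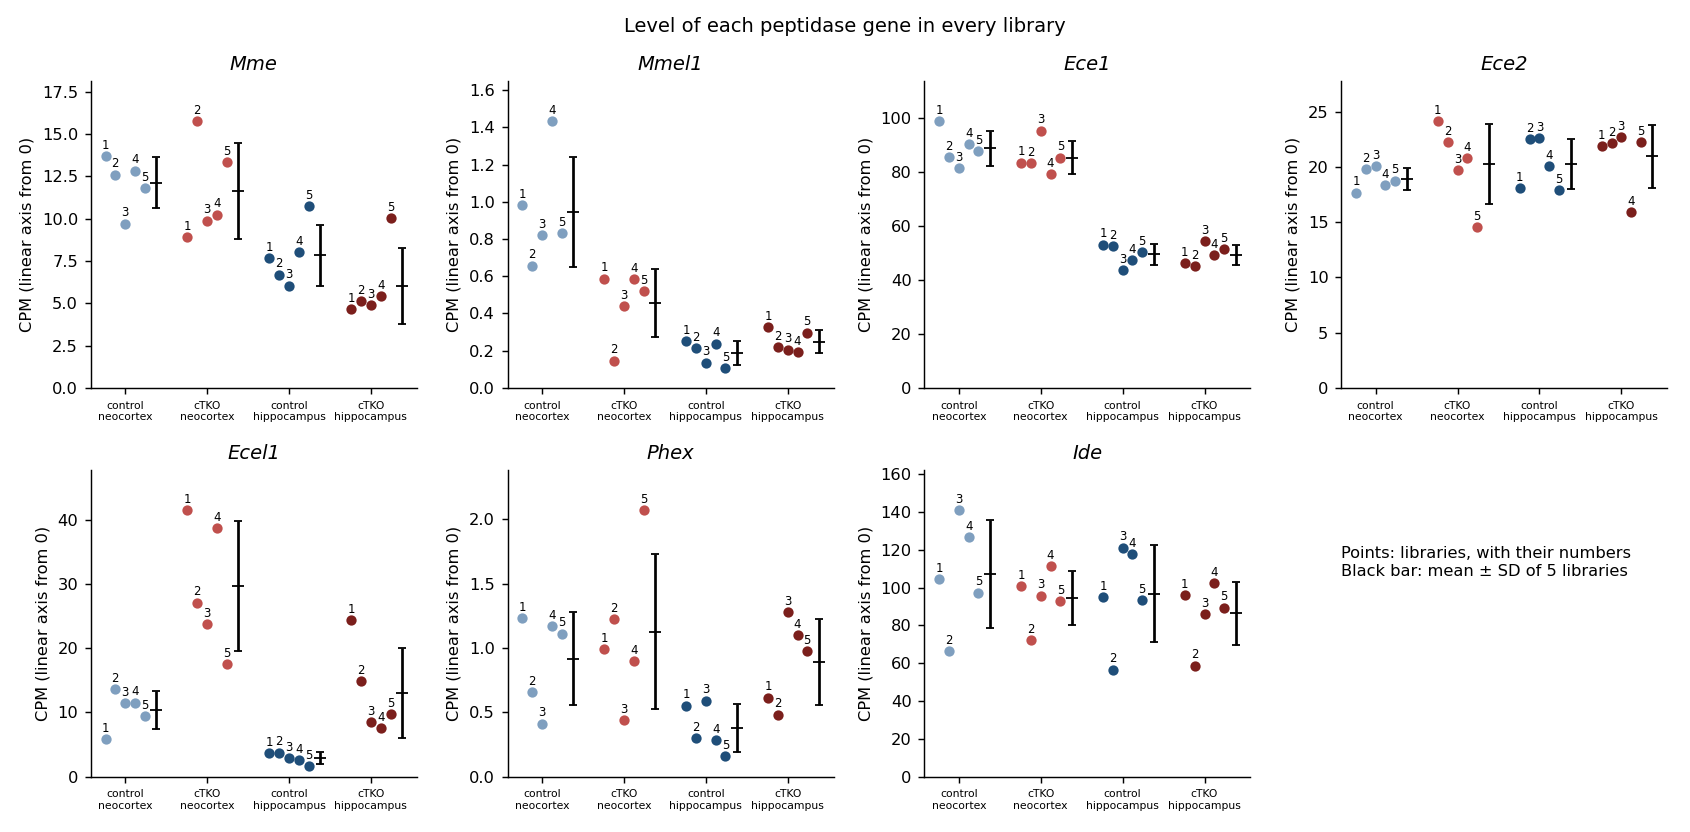
CPM of each gene (y axis, linear from 0) in each of the 20 libraries, by group, with the library number over each point and the mean ± SD of 5 libraries as a black bar. Ecel1 in cTKO mice lies above its controls in both regions, and library 2 is the lowest for Ide in each group.

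Ide did not differ by genotype, but it varied more within each group than most genes of its level. In the neocortex, Ide stood at 104, 66.4, 141, 127 and 97.3 CPM in control libraries 1 to 5 and at 101, 72.3, 95.8, 111 and 92.9 CPM in cTKO libraries 1 to 5. In the hippocampus it stood at 94.9, 56.6, 121, 118 and 93.5 CPM in control libraries and at 95.9, 58.7, 86.0, 102 and 89.4 CPM in cTKO libraries. Library 2 was the lowest in each of the 4 groups. The means in the neocortex were 107 ± 28.7 CPM in control and 94.6 ± 14.2 CPM in cTKO mice (SD, n = 5), and Ide changed by -0.17 on the log2 scale (FDR 0.772 in edgeR's quasi-likelihood test, 95% interval of the ratio 0.692 to 1.13). The means in the hippocampus were 96.8 ± 25.8 and 86.4 ± 16.7 CPM, a log2 fold change of -0.16 (FDR 0.805, 95% interval of the ratio 0.672 to 1.19).

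The deviations of Ide from its group means were alike in the 2 regions for libraries of the same genotype and number. After each group's mean was subtracted, the within-group SD of Ide was 0.360 on the log2 scale, against a median of 0.122 over the 1872 genes within 0.5 of its mean log2 CPM, and 0.962% of those genes had an SD as large. Both regions were taken from 5 mice of each genotype, and although the labels do not say that a number marks a mouse, control libraries of the same number deviated together in the 2 regions. In cTKO mice the numbers were not shown to pair the libraries, since the closest match over all genes was neocortex library 5 with hippocampus library 4 (r = 0.575), which are the libraries with embryonic transcripts. The deviations of Ide in the neocortex and in the hippocampus of the same genotype and number gave a Pearson r of 0.978 over 10 numbers, 5 of them of cTKO mice (Spearman rho 0.952, two-sided exact permutation p = 0.000208 and 0.00111, with pairings permuted within genotype, and 0.00125 and 0.00667 after Benjamini-Hochberg adjustment over 6 members). Without the 2 numbers farthest from the median r was 0.968, and without cTKO numbers 4 and 5, each with 1 library holding embryonic transcripts, it was 0.980. Control mice alone gave too few numbers for a correlation. The correlation was computed after the levels had been seen and for 6 members. It stood at 0.664 for Ece1, 0.423 for Mme, 0.221 for Ecel1, 0.020 for Ece2 and -0.41 for Phex, none past the threshold by Pearson r, and the Spearman rho of Mme was 0.673 (exact permutation p = 0.0438, adjusted 0.131). Over all 14192 genes the median r was 0.0955, and 9 genes, Ide among them, reached 0.978.

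**Figure D3:**
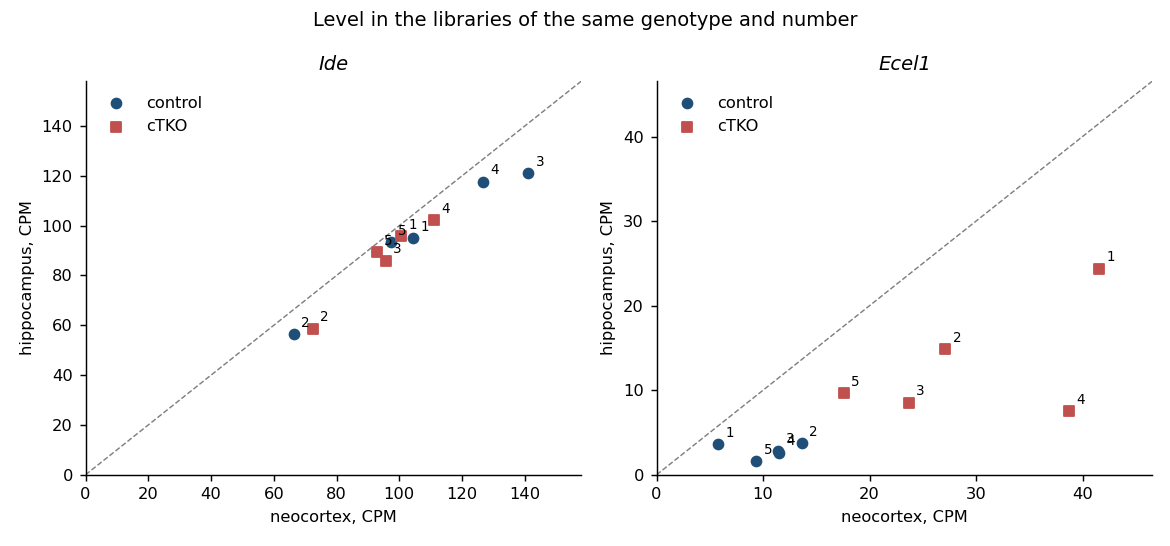
CPM in the hippocampus (y axis) against CPM in the neocortex (x axis) for Ide and Ecel1, with 1 point for each genotype and library number and a dashed line of equal levels. The Ide points lie along 1 line just under the dashed line, and the Ecel1 points of cTKO mice are scattered.

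Between the regions, Ecel1, Ece1 and Mme were lower in the hippocampus. RNA of the neocortex and of the hippocampus was extracted with different kits, so that kit and region cannot be told apart. In control mice 3 of the 5 members tested were called, all lower, where 59% of 13832 genes were called and 29.5% as lower. In cTKO mice 3 of 6 were called, where 41.3% of 13846 genes were called and 21.1% as lower, so calls of members were about as common as calls of any gene.

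Ece1 was lower in the hippocampus by -0.86 on the log2 scale in control mice (standard error 0.063; edgeR's quasi-likelihood test, FDR 2.40e-08) and by -0.81 in cTKO mice (standard error 0.075, FDR 4.50e-06), with no overlap between the regions in either genotype, which 21.8% of genes showed as lower in control and 13.7% in cTKO mice. Within control libraries of the same number the ratio of hippocampus to neocortex was 0.558 ± 0.0372 (SD, n = 5).

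Ecel1 was lower in the hippocampus by -1.83 in control mice (standard error 0.24, FDR 8.60e-06) and by -1.21 in cTKO mice (standard error 0.32, FDR 0.00916), and the regions overlapped in cTKO mice, where hippocampal library 1 was above 2 neocortical libraries. Mme was lower by -0.65 in control mice (standard error 0.14, FDR 0.000903) and by -0.97 in cTKO mice (standard error 0.23, FDR 0.00547), although 1 hippocampal library lay above the lowest neocortical one in each genotype.

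Mmel1 in control mice fell from 10 to 24 counts in the neocortex to 2 to 5 in the hippocampus, with no overlap in CPM, as for 16.9% of genes with a count (log2 fold change -2.27, FDR 4.84e-05 in the fit of all of these, where 21.5% were called as lower). Phex was also lower there in that fit (-1.28, FDR 0.0110), with overlapping ranges, and its exact permutation p of 0.0317 stayed under 0.05 in 4 of 10 runs that left out a library. In cTKO mice neither was called in that fit: the log2 fold change was -0.85 for Mmel1 (FDR 0.161) and -0.33 for Phex (FDR 0.572), with overlapping ranges. The change of this difference with genotype was not called for either gene. In the interaction fit of all genes with a count it was 1.43 on the log2 scale for Mmel1 (standard error 0.55). Its unadjusted p was 0.0150 in edgeR's quasi-likelihood test (FDR 0.99998). For Phex it was 0.95 (standard error 0.58, unadjusted p = 0.114 in the same test). Ece2 did not differ between regions (log2 fold change 0.091 in control and 0.029 in cTKO mice, FDR 0.368 and 0.885).

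Ide was lower in the hippocampus in 5 of 5 control pairs of the same number, at 0.902 ± 0.0465 of the neocortical level (SD, n = 5). The unpaired fit did not call it in control mice (log2 fold change -0.15, standard error 0.20, FDR 0.522) or in cTKO mice (-0.15, FDR 0.443). With the library number as a block, which pairs control libraries, the log2 fold change in control mice was -0.16 (standard error 0.049, FDR 0.0119), and 4 members were then called. In cTKO mice, whose numbers were not shown to pair, the same fit gave -0.16 (FDR 0.0987), which is not a call.

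**Figure D4:**
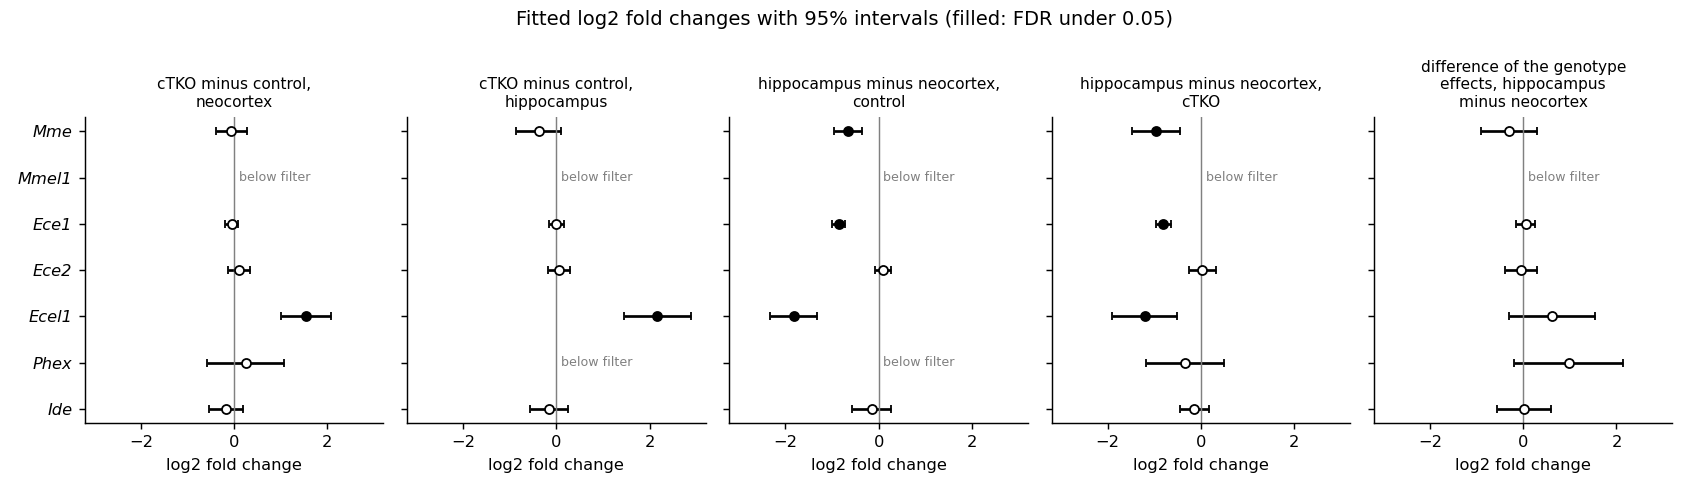
Log2 fold changes (x axis) of each gene (y axis) with 95% intervals for the genotype in each region, for the region in each genotype and for the difference of the genotype effects. Filled points had an FDR under 0.05, and genes below the filter on low counts have no point.

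The genes whose libraries varied most like each member were named by Pearson r over the 20 libraries after group means were subtracted. For Ide these included Nme6 (r = 0.887, chr9:109832749-109843116) and Btaf1 (r = 0.785, chr19:36926079-37012752), whose midpoint lies 0.334 Mb from that of Ide on chromosome 19. For Ecel1 the genes were Cirbp (0.862), Ddx58 (0.814) and Ufsp1 (0.814), and for Mme they were Ap1ar (0.850), Rps6ka5 (0.824) and Astn1 (0.822). Ece1 was followed by E130012A19Rik (0.799), Tle3 (0.793) and Yy1 (0.785), and Phex by Mrvi1 (0.807), Stard13 (0.780) and Myom1 (0.779). The genes most like Ece2, which were Hpcal1 (0.841), Dnajc27 (0.824) and Top1mt (0.810), rested on the libraries with embryonic transcripts: without them the r was 0.540, 0.366 and 0.733. Without those libraries the r of Nme6 with Ide was 0.886.

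Genes of the same pathways were counted from lists chosen by function. The genotype counts of each list stand beside those over all genes. An unadjusted p under 0.05 in edgeR's quasi-likelihood test was found for 1437 of 13843 genes in the neocortex and 1646 of 13702 in the hippocampus. DESeq2 called 221 and 331 of these genes, and edgeR's exact test 167 and 258. Of the precursors of peptides that these enzymes cut, 15 of 24 were tested in each region. In the neocortex 0 were called by edgeR's quasi-likelihood test, with 4 at an unadjusted p under 0.05 and a median log2 fold change of 0.24 against 0.0062 over all genes. DESeq2 and edgeR's exact test called 1, Npy. In the hippocampus Penk, the enkephalin precursor, rose from 33.8 ± 3.65 to 182 ± 62.1 CPM (SD, n = 5; log2 fold change 2.43, FDR 4.59e-05), and Nts, the neurotensin precursor, fell (log2 fold change -0.85, FDR 0.0143), with a median over the list of -0.14 against 0.0049 over all genes. There 6 of the 15 had an unadjusted p under 0.05, edgeR's exact test called 4, adding Npy and Pdyn, and DESeq2 called 5, adding Cck as well. Penk was the 1 listed gene whose genotype effect differed between regions (difference 1.91 on the log2 scale, FDR 0.00444 in edgeR's interaction test), and DESeq2 and edgeR's likelihood ratio test also called Pdyn.

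Of 20 other peptidases tested, 0 were called for genotype in either region by edgeR's quasi-likelihood test, with 3 at an unadjusted p under 0.05 in each, and DESeq2 called 1, Thop1, in the hippocampus. By the quasi-likelihood test 0 were also called among the 6 M16 relatives of Ide (1 in the neocortex and 0 in the hippocampus at such a p) and the 5 receptors of endothelins and natriuretic peptides (1 in each), and DESeq2 called 0 of these. Of 10 genes of the response to nerve injury that were tested, chosen because Ecel1 is part of it, 0 were called in the neocortex, with 2 at an unadjusted p under 0.05 and 2, Stmn4 and Vgf, called by DESeq2, and 1 was called in the hippocampus. Sox11, a transcription factor of growing axons, rose from 21.9 ± 1.80 to 45.1 ± 16.9 CPM (SD, n = 5; log2 fold change 1.04, FDR 0.0456), a call that was lost without the library holding embryonic transcripts. In the hippocampus 5 of the 10 had an unadjusted p under 0.05, and DESeq2 called 3, adding Flrt3 and Gadd45a. There 8 of 10 were above 0 with a median log2 fold change of 0.30, against 7071 of 13702 genes and a median of 0.0049 over all genes. In the neocortex 5 were above 0 and 5 below, with a median of -0.011, against 7224 of 13843 genes above 0 and a median of 0.0062. Atf3, the injury factor itself, was below the filter in both regions, at group means of 0.646 to 2.21 CPM.

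Between the regions in control mice, 4 of the 5 receptors were called higher in the hippocampus and 1 lower, where 29.4% of all genes were called higher. In cTKO mice 1 of the 5 was called higher and 1 lower, where 20.2% of genes were called higher. Npr3, the clearance receptor of natriuretic peptides, was higher by 1.09 on the log2 scale (FDR 1.83e-07), Npr1 by 0.72 (FDR 0.00609) and Ednra by 0.54 (FDR 0.000927). Among the M16 genes Uqcrc2 and Pmpcb, parts of the mitochondrial respiratory chain and processing peptidase, were higher (0.54 and 0.43, FDR 7.87e-07 and 7.07e-06), and Nrd1, nardilysin, was lower (-0.30, FDR 8.73e-05). Of the precursors, 2 of 15 were called higher and 6 lower in the hippocampus, where 59% of all genes were called, with Penk (-2.18), Nts (1.78) and Tac1 (-1.31) the largest by log2 fold change.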

How the data were processed

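Poly-A RNA-seq libraries of 2 regions and 2 genotypes were used, with 5 libraries in each group. The authors mapped 100-bp single-end reads to mm10 with STAR 2.5.4a and counted reads on genes with HTSeq, whose version, annotation and strand setting are not given in the sources used here. The deposited values are raw counts per gene symbol, whole numbers with library totals from 12169474 to 25331954. No pair of the 20 libraries held identical values.

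Each region was tested on its own with edgeR 4.0.16 in R 4.3.3 (TMM, quasi-likelihood F test, genes with CPM above 1 in at least 5 libraries of the comparison, Benjamini-Hochberg over all genes tested, FDR threshold 0.05), and likewise the regions within a genotype and the interaction over all 20 libraries. TMM factors ranged from 0.957 to 1.05. CPM values are on TMM-scaled library sizes and log2 CPM used a prior count of 2. Tested on simulated counts for the neocortex comparison, the fit recovered 88.5% of 200 genes changed 2-fold, and 6.35% of its calls were false. The simulated libraries held no embryonic transcripts set apart in 1 library and 200 changed genes, where the fit of the real libraries called 26. The recovery in the real libraries was not measured. Members below the filter were tested by exact permutation over all splits of 5 libraries against 5. The floor of 3 counts was 0.118 to 0.247 CPM, and it covers counting error only. P-values of the genotype tests within a region measure the spread between these mice. The unblocked fits between regions and of the interaction treated the libraries as independent, although both regions came from the same mice. Their p-values therefore do not separate the spread between mice from that within a mouse.

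The pairing check correlated deviations from group means over 14192 genes. Same-numbered control libraries of the 2 regions correlated at 0.130 to 0.335, each best with its own number. In cTKO mice the correlation ran from -0.071 to 0.396 and the closest match crossed numbers (neocortex 5 with hippocampus 4, 0.575), so numbers were not taken as pairs there. The correlation of Ide by number uses them as labels. The sex read from Xist and Y-linked genes matched in 10 of 10 numbers, with 2 female libraries in each group.

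Positions, exon lengths and coding sequences are from GENCODE M21 on GRCm38. Alternatives were edgeR's exact and likelihood ratio tests, DESeq2 1.42.0, its size factors, other filters on low counts, the library number as a block, sex as a covariate, 1 fit of all libraries, and libraries left out. Named genes were the 7 members, the deleted genes, listed genes called for genotype, up to 3 per list between regions in control mice, the 3 genes most like each member and overlapping genes. One gene that this rule names is not reported here. The members and lists were chosen with earlier results of these data known.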

Additional observations from a re-analysis of the deposited data

Results flagged for a closer look

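Of 28 groups of 5 libraries (7 genes in 4 groups), 2 held a library whose gap to its nearest neighbour was over 0.71 of the group's range (Dixon's criterion). Chance flags about 1 in 20 groups. Mme was at 10.04 CPM in cTKO hippocampus library 5, where the other cTKO hippocampal libraries had 4.63 to 5.41 CPM. The same number in the neocortex stood at 13.3 CPM, within its group. Ece2 was at 15.9 CPM in cTKO hippocampus library 4, where the others had 21.9 to 22.7 CPM. That library holds embryonic transcripts, and its part in the level of Ece2 was not tested.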

How the results depend on the processing

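With the library number as a replicate block, 0 members were called for genotype in the neocortex (Ecel1 1.52, FDR 0.0632), where numbers do not pair the genotypes, since correlations of same-numbered libraries ran from -0.0091 to 0.221, with 3 of 5 best with their own number. The replicate block stopped the call of Ecel1 and added that of Ide between regions in control mice, and it changed no other call of a member. The number of members called between regions in control mice was 5 with no filter or with filterByExpr, which added Mmel1 and Phex. Leaving out 1 library gave 0 to 1 members called in each region for genotype, 2 to 5 single members past the permutation threshold of 0.05 against 4 of 6 in all, and 8 to 15 of the 18 genes most like the members. The genes most like the members depended on the measure: 11 of 18 were shared with Spearman correlation, 3 without subtraction of group means and 7 without the libraries holding embryonic transcripts.

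Values that changed sign were not called. With all libraries they were near 0, apart from that of Phex in the neocortex (0.25). Without the libraries holding embryonic transcripts, Phex in the neocortex was -0.058, and the interaction was -0.059 for Ide. Leaving out 1 library, the log2 fold change ranged from -0.20 to 0.023 for Mme and from -0.058 to 0.44 for Phex for genotype in the neocortex, and from -0.046 to 0.024 for Ece1 in the hippocampus. For the interaction it ranged from -0.16 to 0.019 for Ece2 and from -0.13 to 0.15 for Ide, and for region in cTKO mice from -0.066 to 0.12 for Ece2.

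Over all genes, the count called in the neocortex was 26 by the quasi-likelihood test, 167 by edgeR's exact test, 221 by DESeq2, 42 with no filter, 12 with the block, 17 in 1 fit of all libraries and 133 without the libraries with embryonic transcripts. In the hippocampus it was 67, 258, 331, 72, 58, 195 and 66 in that order, and for the interaction 8 against 26 by DESeq2. Ecel1 was called by each of these tests in both regions, apart from the block in the neocortex. In the order of levels, 20 of 28 places stayed with the longest transcript in place of all exons, and Ide then stood above Ece1 in the neocortex. In control hippocampus Mme (0.974 CPM per kb of that transcript) then stood above Ecel1 (0.956), and Mmel1 (0.0643) above Phex (0.0602). Depth limits Mmel1 and Phex, whose lowest libraries held 2 and 3 counts.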
